A study of Mus musculus with 11 samples.

Results

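The Wnt ligands, Frizzled receptors, Lrp co-receptors, secreted antagonists and nuclear effectors examined here were a list of 43 genes: 17 ligands, 10 receptors, 2 co-receptors, 8 antagonists and 6 intracellular genes. Every ATAC-seq peak that overlapped the body of one of these genes, or lay within 10 kb of one of its transcription start sites (TSSs), was taken, which gave 353 of the 153396 merged peaks. Of these, 62 lay within 500 bp of a TSS and are called promoter peaks, and 291 are called other peaks. A promoter peak was found for 40 of the 43 genes, the exceptions being Wnt8b, Dkk1 and Dkk2. Where a gene had several, its promoter peak below is the one with the highest mean log2 accessibility over all libraries. Because neighbouring genes overlap in reach, 2 of the peaks served both Wnt3a and Wnt9a and 1 served both Wnt6 and Wnt10a.

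Chromatin accessibility was measured in sorted mammary epithelial cells from micro-dissected terminal end buds (TEBs) and ducts of 5-week-old C57BL/6 females. All mice carried an E-cadherin-GFP reporter, which guided the dissection and the sort, so that basal cells were the reporter-low and luminal cells the reporter-high part of the CD24+CD29+ cells negative for Ter119, CD31 and CD45. There were 2 libraries of basal duct (replicates 1 and 3) and 3 for each of the other populations (luminal duct, luminal TEB and basal TEB), described as biological replicates with no word on which libraries shared mice. The sort was on surface markers and reporter level, so each library is a bulk of all cells in the gate, and more cells with an open site cannot be told apart from a more open site in each cell.

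Wnt proteins bind Frizzled receptors together with the co-receptors Lrp5 or Lrp6, which spares beta-catenin (Ctnnb1) from destruction by the complex built on Axin proteins. Beta-catenin then acts in the nucleus with the DNA-binding proteins Tcf7, Tcf7l1, Tcf7l2 and Lef1, while Sfrp, Dkk and Wif1 proteins act outside the cell, most of them by keeping ligand from receptor or receptor from co-receptor. In the mammary gland this pathway is known for its part in placode formation, in basal stem cell activity and, through Wnt4, in side branching.

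Of the other peaks described below, 5 are shown first as sequence because they carry the contrasts between lineages and between structures. The Dkk3 intron peak and the 5′ of a pair of Tcf7l2 intron peaks were open in basal cells, the 3′ Tcf7l2 peak and the Fzd4 upstream peak in luminal cells, and the Wnt9a intron peak in basal duct cells. Each line gives the central 300 bases of the peak from the RefSeq GRCm38.p6 (mm10) sequence, plus strand, and none of these windows overlaps an annotated exon. Capitals mark matches on either strand to the letters CATTCCA, a motif of TEAD factors, or TGANTCA, a motif of AP-1 factors. The other motifs searched had no match in these windows: CTTTGAT for the nuclear effectors of the pathway, TGTTTAC for Forkhead factors and TGTGGTT for RUNX factors.
Dkk3 intron, chr7:112144095-112144394: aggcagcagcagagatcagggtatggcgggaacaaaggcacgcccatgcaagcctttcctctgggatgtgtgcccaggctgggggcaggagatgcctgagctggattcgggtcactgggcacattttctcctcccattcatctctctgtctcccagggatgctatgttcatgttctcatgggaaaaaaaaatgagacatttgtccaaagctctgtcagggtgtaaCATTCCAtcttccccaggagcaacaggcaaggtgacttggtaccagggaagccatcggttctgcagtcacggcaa
Tcf7l2 intron, 5′ peak, chr19:55779694-55779993: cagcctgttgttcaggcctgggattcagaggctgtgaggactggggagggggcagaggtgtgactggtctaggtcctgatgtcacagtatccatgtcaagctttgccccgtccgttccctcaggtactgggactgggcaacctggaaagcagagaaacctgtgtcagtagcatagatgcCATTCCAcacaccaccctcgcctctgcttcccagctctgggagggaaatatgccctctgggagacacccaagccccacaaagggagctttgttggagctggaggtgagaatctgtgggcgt
Tcf7l2 intron, 3′ peak, chr19:55865729-55866028: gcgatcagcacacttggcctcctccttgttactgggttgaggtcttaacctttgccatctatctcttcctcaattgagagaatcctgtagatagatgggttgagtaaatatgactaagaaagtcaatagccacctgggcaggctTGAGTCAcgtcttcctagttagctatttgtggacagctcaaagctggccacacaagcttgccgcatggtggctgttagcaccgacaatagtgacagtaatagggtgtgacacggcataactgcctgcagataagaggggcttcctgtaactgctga
Fzd4 upstream, chr7:89402205-89402504: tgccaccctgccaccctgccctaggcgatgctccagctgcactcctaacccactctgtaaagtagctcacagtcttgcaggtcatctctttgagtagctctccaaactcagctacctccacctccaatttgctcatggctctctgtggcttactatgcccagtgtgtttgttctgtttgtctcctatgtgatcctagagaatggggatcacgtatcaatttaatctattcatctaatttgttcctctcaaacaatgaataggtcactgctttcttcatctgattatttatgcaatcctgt
Wnt9a intron, chr11:59313178-59313477: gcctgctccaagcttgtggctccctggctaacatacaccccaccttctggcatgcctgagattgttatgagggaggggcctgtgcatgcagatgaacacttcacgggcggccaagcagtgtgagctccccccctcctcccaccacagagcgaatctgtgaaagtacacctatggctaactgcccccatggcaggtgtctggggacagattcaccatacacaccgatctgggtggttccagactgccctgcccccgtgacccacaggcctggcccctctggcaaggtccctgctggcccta

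Among the central windows, cut to at most 300 bases, of all 136766 other peaks of the series, 7.04% held the TEAD motif, 27.2% the AP-1 motif, 3.78% the pathway effector motif, 6.46% the Forkhead motif and 7.64% the RUNX motif. The TEAD motif occurred 1 time in the Dkk3 window and 1 time in the 5′ Tcf7l2 window, both open in basal cells, and the AP-1 motif 1 time in the 3′ Tcf7l2 window. Over whole peaks, the effector motif was present in 9.68% of the 62 member promoter peaks against 7.11% of all peaks in the promoter window, and in 4.47% of the 291 other member peaks against 5.82% of all other peaks. The motif shares are descriptions of letters in peaks and say nothing of whether a factor was bound.

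The libraries held between 1821942 counts in peaks (basal TEB replicate 1) and 9986384 (basal duct replicate 1), and the member peaks took 0.283% of them in both basal duct libraries, 0.212% to 0.228% in basal TEB and 0.169% to 0.185% in luminal libraries. A median member promoter peak had 248 and 154.5 counts in basal duct but 26 to 29.5 in basal TEB, so single peaks were measured least precisely in basal TEB, where 1 count was worth 0.391 to 0.511 CPM (the count scaled to a common library total). The labelled cell types matched their markers at promoter peaks. Between the duct populations, all 7 basal markers tested were higher in basal cells and 6 of 7 luminal markers were lower. The gate asked for CD24, CD29 and the reporter of an epithelial cadherin and left out CD31+ cells, but markers of other cell types also differed. Of 8 fibroblast markers listed 5 had a promoter peak, and their summed level was 139 to 159 CPM in basal duct and 64.9 to 87.2 in basal TEB, beside 20.2 to 24.7 over the luminal libraries. The summed level of the 2 endothelial markers with a promoter peak, of 6 listed, was 25.2 to 28.7 CPM in basal duct, 17.6 to 22.5 in basal TEB and 4.45 to 7.58 in luminal libraries. The 2 immune markers with a promoter peak, of 5 listed, went both ways. Csf1r was lower in basal than luminal duct by 2.63 (SE 0.38, edgeR adjusted p = 3.9e-13) and Coro1a higher by 1.04 (SE 0.22, edgeR adjusted p = 0.00012). Of 3 pericyte markers with a promoter peak, 2 were higher in basal duct and 0 lower, and the 1 such adipocyte marker was higher. The part of such cells in the results below was not tested.

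Per kilobase, Frizzled promoters were the most open of the classes in every population. The median over the 10 receptors was 36.0 RPKM (group mean CPM per kilobase of peak) in basal duct and 21.4 in luminal duct. It was 19.2 and 6.58 RPKM for the 16 ligands with a promoter peak. Fzd4 had the highest value in basal duct at 46.9 RPKM and in luminal duct at 47.4 RPKM, followed by Fzd5 at 45.3 and 44.1 RPKM. In basal TEB the highest were Tcf7l2 at 29.9 RPKM and Fzd5 at 29.6 RPKM. The lowest in luminal duct were Wnt2 at 1.76 RPKM and Dkk3 at 1.92 RPKM, and the heatmap of log2 values sets out all 40 promoters by library.

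**Figure D1:**
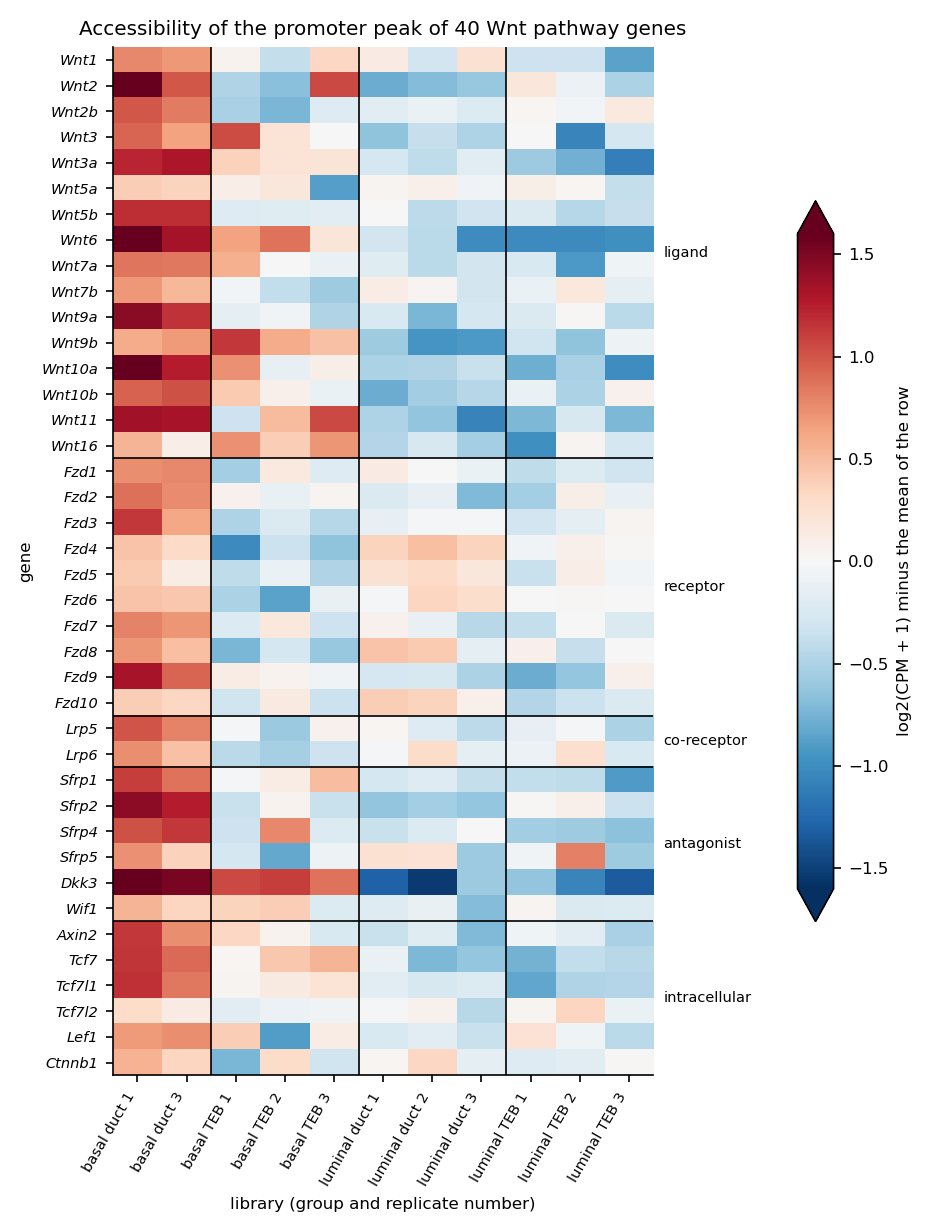
Heatmap of log2(CPM + 1) of the promoter peak of 40 genes (rows, grouped by role) in 11 libraries (columns, grouped by population), with the mean of each row taken away. Both basal duct columns are the reddest for most rows, and Dkk3 is red in all 5 basal libraries and blue in all 6 luminal ones.

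The first comparison asked which Wnt pathway promoters differed between the basal and the luminal lineage of ducts. Of the 40 genes, 31 had a promoter peak that was more accessible in basal duct than in luminal duct and 0 one that was less accessible (edgeR exact test, FDR 0.05), where over the whole series 43.8% of peaks in the promoter window were higher and 12.0% lower. At an unadjusted p under 0.05 the counts were 31 and 0, and by DESeq2 29 and 0. They became 27 and 2 with libraries scaled on TSS peaks alone, where Fzd4 and Fzd5 were called lower, and 27 and 3 with offsets by GC content, where Fzd10 joined these. Over all 62 member promoter peaks the counts were 46 and 0. The median log2 fold change was 1.19 over these 62, beside 0.35 over all promoter peaks.

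Of the 16 ligand promoters 15 were higher in basal duct (Wnt1, Wnt2, Wnt2b, Wnt3, Wnt3a, Wnt5b, Wnt6, Wnt7a, Wnt7b, Wnt9a, Wnt9b, Wnt10a, Wnt10b, Wnt11 and Wnt16), with log2 fold changes from 0.63 for Wnt7b to 2.96 for Wnt2. Under 13 other settings the call of Wnt1 was lost in 7, that of Wnt16 in 5 and that of Wnt7b in 3. These are calls of the most open promoter peak. Counting every promoter peak of the gene, 1 of 2 was higher for Wnt1, 1 of 3 each for Wnt7b and Wnt16, and 3 of 4 for Wnt11. Wnt5a, a ligand best known for signalling without beta-catenin, had a log2 fold change of 0.31 (SE 0.04, adjusted p = 0.18 by edgeR) at its most open promoter peak, while 2 weaker promoter peaks of the gene were higher.

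Wnt10a, a ligand active in skin appendages and mammary basal cells, measured 28.3 and 21.1 CPM in basal duct, 14.3, 7.44 and 8.86 in basal TEB, 5.51, 5.6 and 6.23 in luminal duct, and 4.39, 5.46 and 3.62 in luminal TEB (chr1:74791324-74792347). All 5 basal libraries lay above all 6 luminal ones, and the log2 fold change between duct populations was 2.04 (SE 0.20, adjusted p = 1.8e-19, edgeR). Wnt6, its neighbour on chromosome 1, gave 18.3 and 13.9 CPM in basal duct, 8.18, 9.78 and 5.76 in basal TEB, 3.82, 3.36 and 1.93 in luminal duct, and 1.92, 1.91 and 1.98 in luminal TEB (chr1:74771602-74772264). Here too the lineages did not overlap, with a log2 fold change of 2.34 (adjusted p = 2.6e-17 by edgeR, SE 0.33) in ducts.

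Wnt11, a ligand of the planar polarity branch, had 17.0 and 16.6 CPM in basal duct, 4.60, 9 and 13.7 in basal TEB, 4.03, 3.54 and 2.36 in luminal duct, and 3.29, 4.92 and 3.29 in luminal TEB (chr7:98834587-98835333). Basal duct was above every luminal library, with a log2 fold change of 2.27 (adjusted p = 1.3e-17 by edgeR, SE 0.21), whereas basal TEB spread across a range that reached down to the luminal values. Wnt9a had 33.0 and 26.8 CPM in basal duct, 10.2, 11 and 7.98 in basal TEB, 9.54, 6.53 and 9.24 in luminal duct, and 9.60, 11.7 and 8.23 in luminal TEB (chr11:59306403-59307405). Its log2 fold change between the duct populations was 1.78 (SE 0.22, edgeR adjusted p = 8.8e-18), and only basal duct stood apart among the 4 groups.

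Receptor promoters were divided. Fzd1, Fzd2, Fzd3, Fzd7 and Fzd9 were higher in basal duct, by log2 fold changes from 0.70 for Fzd1 to 1.53 for Fzd9. Fzd4, Fzd5, Fzd6, Fzd8 and Fzd10 did not pass the test, with values between -0.08 for Fzd4 and 0.28 for Fzd8. Both co-receptors were higher, Lrp5 by 1.10 (SE 0.17, edgeR adjusted p = 3.5e-08) and Lrp6 by 0.52 (SE 0.19, edgeR adjusted p = 0.0058), and the call of Lrp6 was lost when libraries were scaled on TSS peaks alone, without basal duct replicate 1 and with GC offsets, where its value was -0.06.

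Of the 6 antagonists with a promoter peak, Sfrp1, Sfrp2, Sfrp4, Dkk3 and Wif1 were higher in basal duct. Sfrp5 was not called, at 0.76 (SE 0.45, edgeR adjusted p = 0.13) and 3.08 CPM at most in the duct libraries. Dkk3, a divergent member of the Dickkopf family, had the smallest p of all 40. Its promoter peak, which lies over exon sequence at chr7:112157529-112158645, gave 23.6 and 18 CPM in basal duct, 12.8, 13.3 and 11.1 in basal TEB, 1.70, 1.31 and 3.44 in luminal duct, and 3.29, 2.19 and 1.65 in luminal TEB. The lineages were separated by a wide gap in both structures, and the log2 fold change in ducts was 3.23 (SE 0.40, edgeR adjusted p = 2.5e-30).

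Among the intracellular genes, Axin2, itself a common target of the pathway, was higher in basal duct by 1.35 (SE 0.24, edgeR adjusted p = 1.4e-13). Tcf7, Tcf7l1 and Lef1 were higher by 1.51, 1.21 and 1.06. Ctnnb1, at 0.32 (SE 0.18, edgeR adjusted p = 0.099), and the most open promoter peak of Tcf7l2, at 0.28 (SE 0.18, edgeR adjusted p = 0.14), were not called. Of the 4 promoter peaks of Tcf7l2, 2 weaker ones were higher in basal duct.

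**Figure D2:**
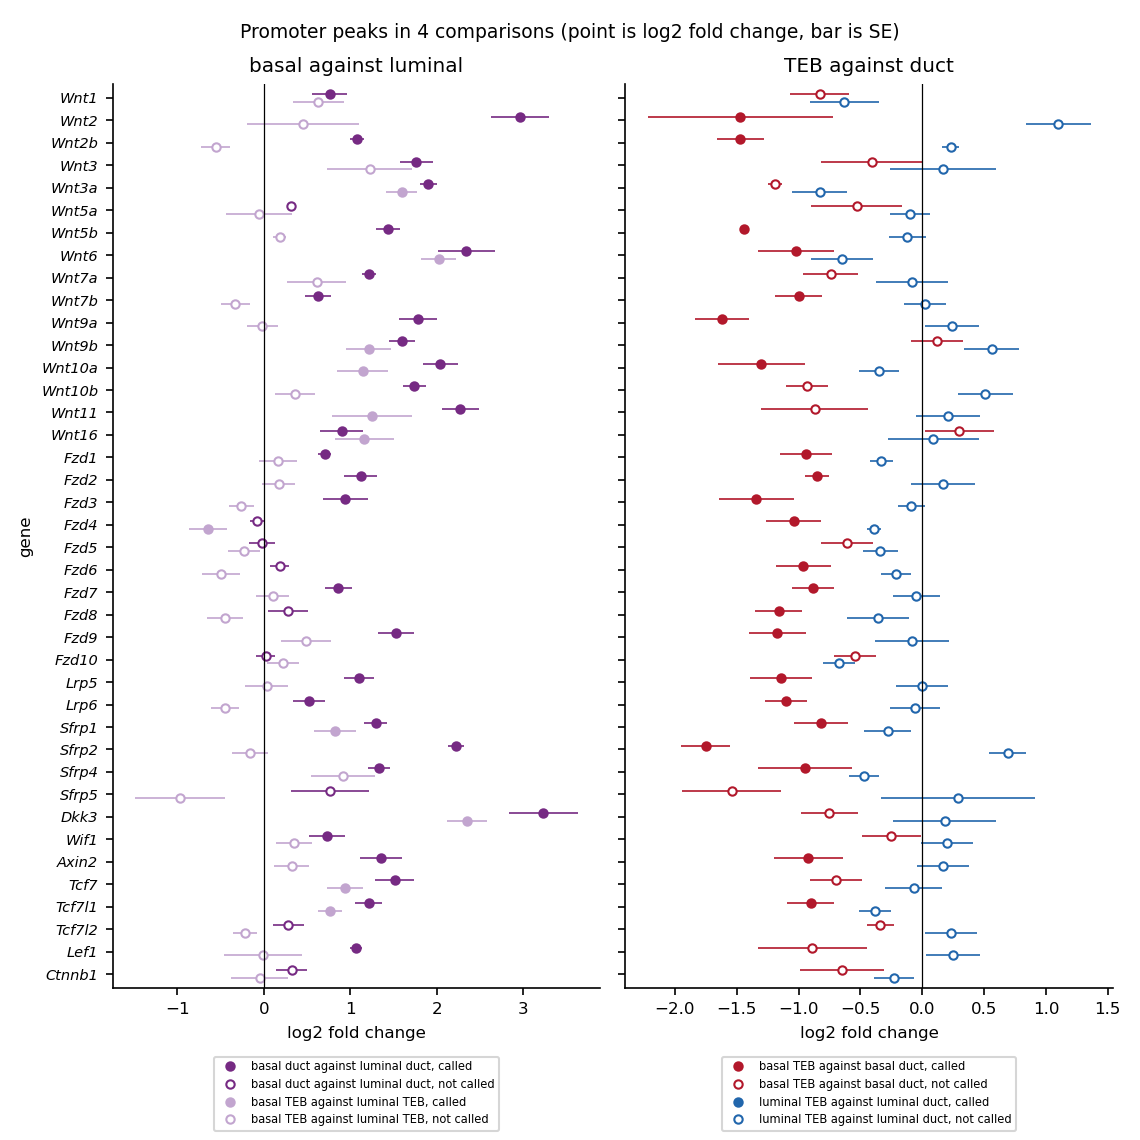
Log2 fold changes (points) with their SE (bars) of the promoter peak of 40 genes, basal against luminal on the left and TEB against duct on the right; filled points passed FDR 0.05. On the left the dark points, for ducts, lie mostly right of 0, up to 3.23 for Dkk3, and on the right the red points, for basal cells, lie mostly left of 0, down to -1.75 for Sfrp2.

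Peaks away from promoters went both ways. Of 291 other member peaks, 146 were higher in basal duct and 56 lower, beside 30.3% higher and 39.6% lower among all other peaks of the series, and their median log2 fold change was 0.91 beside -0.29. Tcf7l1 and Tcf7l2, both long genes with many intronic peaks, supplied 21 of the higher peaks each, and Lrp6 supplied 12. In Wnt10a, Fzd2 and Wnt3 all other peaks (5, 4 and 4) were higher in basal duct, and in Fzd4 all 3 were lower. In Dkk2, which had no promoter peak, 3 of 4 were lower and 0 higher.

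The Dkk3 intron peak shown above (whole peak chr7:112143712-112144778, its centre 14812 bp inside the TSS) had 43.9 and 38.2 CPM in basal duct, 27.1, 45.8 and 27.0 in basal TEB, 3.6, 2.05 and 1.5 in luminal duct, and 3.02, 5.74 and 3.29 in luminal TEB. Every basal library exceeded every luminal one, by a log2 fold change of 4.04 (adjusted p = 1.6e-62 by edgeR, SE 0.34) in ducts and 3.04 (SE 0.36, edgeR adjusted p = 1e-17) in TEBs. A peak centred at -8730 bp from the Lrp6 TSS (chr6:134575335-134575951) held 26.4 and 21.4 CPM in basal duct, 8.69, 27.4 and 22.6 in basal TEB, 0.636, 1.49 and 0.645 in luminal duct, and 1.10, 0.273 and 2.63 in luminal TEB. It too separated the lineages, by 4.57 (SE 0.33, edgeR adjusted p = 2.8e-48) in ducts and 3.92 (SE 0.72, edgeR adjusted p = 8e-15) in TEBs, in contrast to the small change at the Lrp6 promoter itself.

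Tcf7l2 carried peaks of both kinds inside 1 gene. Its 5′ intron peak (whole peak chr19:55779387-55780301) gave 55.5 and 49.8 CPM in basal duct, 44.0, 66.9 and 45.7 in basal TEB, 8.91, 4.85 and 3.87 in luminal duct, and 8.51, 9.02 and 9.55 in luminal TEB. The log2 fold changes were 3.10 (SE 0.35, edgeR adjusted p = 2.7e-52) in ducts and 2.54 (SE 0.21, edgeR adjusted p = 3.5e-18) in TEBs. Its 3′ intron peak (chr19:55865523-55866234) had 1.03 and 1.08 CPM in basal duct, 1.02, 1.57 and 1.77 in basal TEB, 15.9, 16.2 and 12.0 in luminal duct, and 16.7, 20.8 and 21.1 in luminal TEB. The values of the 3′ peak were lower in basal cells, at -3.85 (SE 0.14, edgeR adjusted p = 2.8e-29) and -3.68 (SE 0.20, edgeR adjusted p = 2.2e-16) on the log2 scale. The gene, with no called difference at its most open promoter peak in ducts, thus had opposite orders of lineages at these intron peaks.

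Fzd4 and Tcf7l1 had luminal peaks upstream of the gene. At the Fzd4 peak (chr7:89402121-89402589, centre at -2000 bp from the TSS) the values were 1.14 and 0.770 CPM in basal duct, 2.56, 0.391 and 3.99 in basal TEB, 25.2, 29.5 and 20.6 in luminal duct, and 21.4, 20.8 and 19.4 in luminal TEB. The log2 fold changes were -4.72 (SE 0.25, edgeR adjusted p = 1.6e-50) and -3.17 (SE 0.63, edgeR adjusted p = 6.1e-14) for basal against luminal. At the Tcf7l1 peak (chr6:72794900-72795412, centre at -5902 bp from the TSS) they were 0.912 and 1.23 CPM in basal duct, 3.58, 0 and 3.55 in basal TEB, 14.6, 17.2 and 14.6 in luminal duct, and 8.51, 14.5 and 13.5 in luminal TEB. The Tcf7l1 peak was thus lower in basal cells, at -3.92 (SE 0.19, edgeR adjusted p = 4.1e-31) in ducts, while the promoter of this repressor-type Tcf protein was higher in them.

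**Figure D3:**
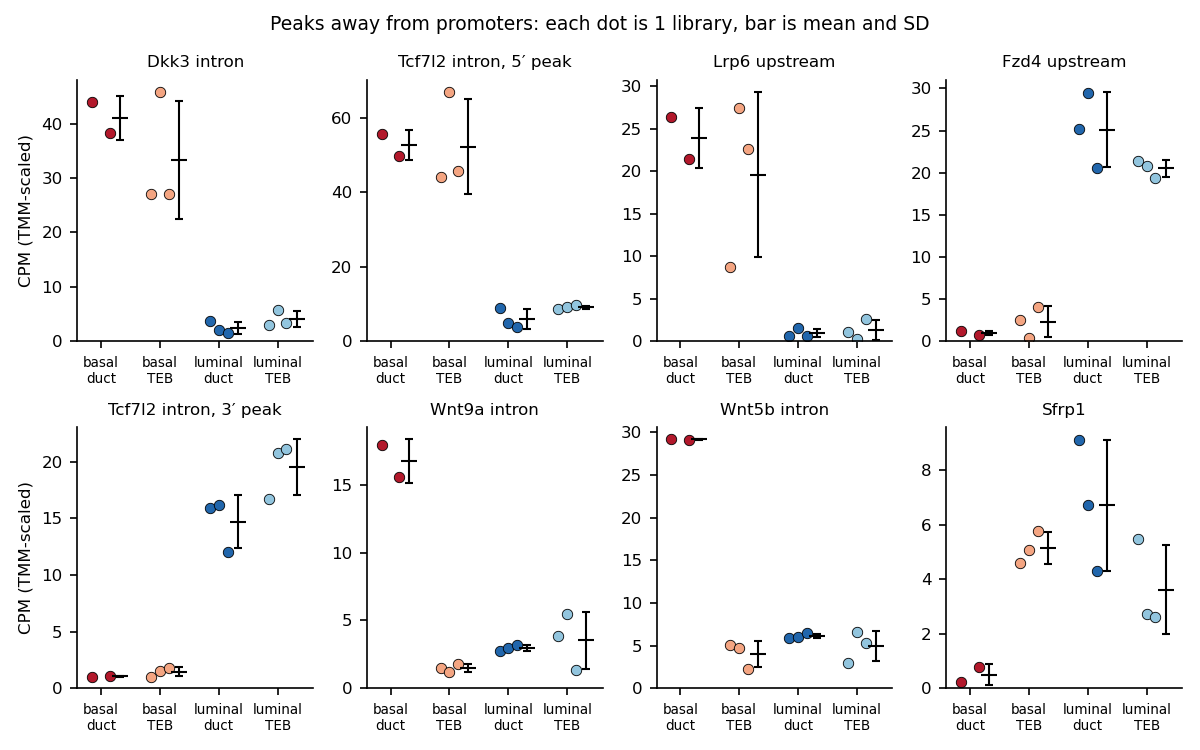
CPM of 8 other peaks, 1 panel each, with 1 dot per library in 4 groups and the mean and SD beside the dots. Dkk3, the 5′ Tcf7l2 peak and Lrp6 are high in the basal groups, Fzd4 and the 3′ Tcf7l2 peak in the luminal groups, Wnt9a and Wnt5b in basal duct alone, and Sfrp1 is at or under 0.770 CPM in basal duct and higher in every other library.

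In TEBs the same comparison of lineages called fewer promoters: 10 of 40 were higher in basal TEB and 1 lower, beside 10.4% higher and 14.7% lower among all peaks in the promoter window. Over 62 promoter peaks the counts were 12 and 2, with a median log2 fold change of 0.27 beside -0.07. The higher ones were the ligands Wnt3a, Wnt6, Wnt9b, Wnt10a, Wnt11 and Wnt16, the antagonists Dkk3 and Sfrp1, and Tcf7 and Tcf7l1. Dkk3 was higher by 2.35 (SE 0.23, edgeR adjusted p = 6.4e-08) and Wnt6 by 2.02 (SE 0.20, edgeR adjusted p = 0.00013). Without luminal TEB replicate 1 the promoters called higher were 3, without luminal TEB replicate 3 they were 5, without basal TEB replicate 3 they were 6, and by DESeq2 they were 5.

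Wnt9b, a ligand of epithelial organ development, had 11.7 and 12.5 CPM in basal duct, 17.4, 11.7 and 10.6 in basal TEB, 4.67, 3.36 and 3.44 in luminal duct, and 5.76, 4.37 and 6.92 in luminal TEB (chr11:103749600-103750462). Its log2 fold change in TEBs was 1.21 (SE 0.26, edgeR adjusted p = 0.0025). The 5 basal libraries lay above the 6 luminal ones, and basal TEB was no lower than basal duct. Tcf7 had 36.7 and 31.0 CPM in basal duct, 16.4, 21.9 and 23.9 in basal TEB, 14.8, 9.33 and 10.1 in luminal duct, and 9.06, 12.0 and 11.5 in luminal TEB (chr11:52282416-52283700), with 0.94 (SE 0.21, edgeR adjusted p = 0.0048) in TEBs. Fzd4 was the promoter that was lower in basal TEB, at -0.65 (SE 0.22, edgeR adjusted p = 0.019), at 28.1, 45.4 and 36.8 CPM against 55.4, 61.2 and 58.6 in luminal TEB, with 80.1 and 71.6 in basal duct and 74.2, 81.2 and 74.6 in luminal duct (chr7:89403413-89405030). That call was lost when basal TEB replicate 1 or any 1 luminal TEB library was left out, with adjusted p up to 0.093 by edgeR.

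Away from promoters, 66 of 291 member peaks were higher in basal TEB and 43 lower, beside 17.4% and 21.5% of all other peaks of the series. The smallest p among the lower ones belonged to a Wnt5b intron peak (chr6:119535841-119536706). It measured 17.3 and 14.9 CPM in basal duct, 4.60, 4.70 and 2.22 in basal TEB, 43, 34.3 and 38.0 in luminal duct, and 29.1, 38.0 and 32.3 in luminal TEB. The difference of lineages on the log2 scale was -3.09 (SE 0.31, edgeR adjusted p = 1.3e-18) in TEBs and -1.31 (SE 0.13, edgeR adjusted p = 1.5e-12) in ducts. All basal libraries were below all luminal ones, and those of basal TEB were the lowest.

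The comparison of TEB with duct within the basal lineage gave the largest change of structure. Of 40 promoters, 22 were lower in basal TEB than in basal duct and 0 higher, beside 31.9% lower and 0.673% higher among all peaks in the promoter window. Over 62 promoter peaks the counts were 27 and 0, and their median log2 fold change was -0.89 beside -0.64 over all promoter peaks. At an unadjusted p under 0.05 edgeR gave 31 lower and 0 higher among the 40, and DESeq2 called 15 and 0. The share of counts in promoter-window peaks was 40% to 42.7% in basal duct and 31.1% to 35.7% in basal TEB, and the share in soft-masked (repeat) peaks was 2.40% to 2.45% and 7.03% to 16.2%. With libraries scaled on TSS peaks alone, 3 of the 40 promoters were called lower and 0 higher, as also with GC offsets, and the median of all peaks of the series moved from 0.02 to 0.67. Over all 353 member peaks the split of higher to lower was then 28 to 14, beside 21927 to 2393 among all 153358 peaks tested. In the main fit it was 7 to 66, beside 8.22% and 9.73% of all peaks. Leaving out basal duct replicate 1 or 3 leaves 1 basal duct library, and most or all of the 22 calls were then lost. Calls over all peaks of the series also fell strongly. The median log2 fold change of the 40 promoters was -0.86 without replicate 1 and -0.96 without replicate 3, beside -0.93 in the main fit.

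By role, 8 of 10 receptors were lower in basal TEB (Fzd1, Fzd2, Fzd3, Fzd4, Fzd6, Fzd7, Fzd8 and Fzd9), both co-receptors, 7 of 16 ligands (Wnt2, Wnt2b, Wnt5b, Wnt6, Wnt7b, Wnt9a and Wnt10a), 3 of 6 antagonists (Sfrp1, Sfrp2 and Sfrp4), and Axin2 and Tcf7l1. Of these, Wnt9a, Wnt5b and Sfrp2 remained called under TSS-peak scaling. With GC offsets Wnt9a, Sfrp2 and Fzd8 remained called, and the Wnt5b call was lost at -0.60 (edgeR adjusted p = 0.095). With a replicate block beside these offsets the Sfrp2 call was lost too, at -1.19 (edgeR adjusted p = 0.059), which left Wnt9a and Fzd8. The Fzd8 log2 fold change in the main fit was -1.16 (edgeR adjusted p = 0.0012). Wnt9a, with the values per library given above, fell by 1.62 on the log2 scale (SE 0.22, edgeR adjusted p = 2.2e-05). Wnt5b had 31.0 and 30.8 CPM in basal duct, 11.2, 11.3 and 11.5 in basal TEB, 13.1, 9.52 and 10.3 in luminal duct, and 11, 9.29 and 9.88 in luminal TEB (chr6:119543438-119544924), and fell by 1.44 (SE 0.03, edgeR adjusted p = 0.00011). Both ligands shared a pattern in which basal TEB lay near the luminal libraries and far from basal duct.

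Wnt2b had 30.8 and 27.4 CPM in basal duct, 10.2, 8.61 and 12.9 in basal TEB, 13.1, 13.8 and 12.7 in luminal duct, and 15.4, 14.5 and 16.8 in luminal TEB (chr3:104961197-104962549). It fell by 1.47 (SE 0.19, edgeR adjusted p = 0.00014). Sfrp2, a secreted Frizzled-related protein, had 14.8 and 12.9 CPM in basal duct, 3.58, 5.09 and 3.55 in basal TEB, 2.76, 2.99 and 2.79 in luminal duct, and 4.94, 5.19 and 3.62 in luminal TEB (chr3:83765829-83766950). It fell by 1.75 (SE 0.20, edgeR adjusted p = 0.00028). Fzd3, a receptor of the planar polarity branch, had 44.8 and 31.0 CPM in basal duct, 13.8, 16.8 and 14.2 in basal TEB, 18, 19.6 and 19.6 in luminal duct, and 15.9, 17.8 and 20.4 in luminal TEB (chr14:65261795-65262868). It fell by 1.34 (SE 0.30, edgeR adjusted p = 0.00028). In each of the 3 genes both basal duct libraries exceeded all 9 others, and the calls of Wnt2b and Fzd3 were lost under TSS-peak scaling, at adjusted p = 0.052 and 0.065 (edgeR).

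**Figure D4:**
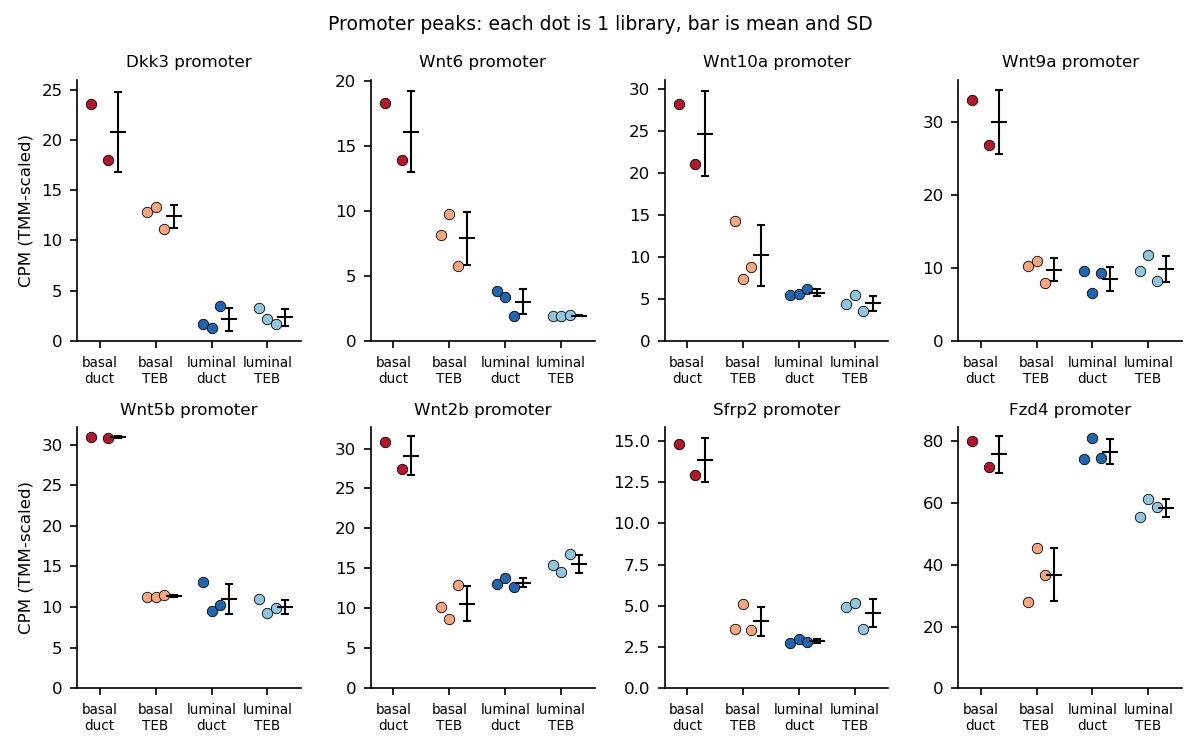
CPM of 8 promoter peaks, 1 panel each, with 1 dot per library in 4 groups and the mean and SD beside the dots. Dkk3, Wnt6 and Wnt10a are higher in both basal groups than in either luminal group, Wnt9a, Wnt5b, Wnt2b and Sfrp2 are high in basal duct alone, and Fzd4 is lowest in basal TEB.

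Of the 291 other peaks, 7 were higher and 39 lower in basal TEB, beside 9.14% and 7.03% of all other peaks, with a median log2 fold change of -0.24 beside 0.15. Wnt5b supplied 7 of the lower peaks, Wnt9a 6 and Wnt10a 4. The Wnt9a intron peak shown above (whole peak chr11:59312872-59313784) had 17.9 and 15.6 CPM in basal duct, 1.53, 1.17 and 1.77 in basal TEB, 2.76, 2.99 and 3.22 in luminal duct, and 3.84, 5.46 and 1.32 in luminal TEB. It fell by 3.48 (SE 0.18, edgeR adjusted p = 1.1e-10). A Wnt5b intron peak (chr6:119521484-119522315) had 29.2 and 29.1 CPM in basal duct, 5.11, 4.70 and 2.22 in basal TEB, 5.94, 5.97 and 6.45 in luminal duct, and 3.02, 6.56 and 5.27 in luminal TEB. It fell by 2.86 (SE 0.34, edgeR adjusted p = 1e-11). Like their promoters, both peaks were open in basal duct and near the luminal level in basal TEB. A further Wnt5b intron peak (chr6:119526379-119527311) had 46.8 and 40.4 CPM in basal duct, 12.8, 14.1 and 13.3 in basal TEB, 21.4, 21.3 and 14.6 in luminal duct, and 12.3, 12.6 and 11.9 in luminal TEB, and fell by 1.70 (SE 0.14, edgeR adjusted p = 1.3e-06).

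The 7 peaks that were higher in basal TEB than in basal duct were intronic, 1 each in Lef1, Sfrp1, Lrp5, Lrp6, Dkk2, Wnt7b and Wnt9a. In Lef1 (chr3:131143147-131143483) the values were 1.03 and 0.770 CPM in basal duct, 8.18, 2.74 and 10.6 in basal TEB, 0.636, 0.933 and 0.860 in luminal duct, and 1.65, 0.820 and 0.988 in luminal TEB, so basal TEB was above every other library, by 2.92 (SE 0.56, edgeR adjusted p = 8.3e-05). In Lrp5 (chr19:3684330-3684763) they were 3.30 and 3.54 CPM in basal duct, 7.16, 7.04 and 19.1 in basal TEB, 4.03, 3.54 and 2.79 in luminal duct, and 4.12, 3.28 and 2.31 in luminal TEB, with 1.69 (SE 0.45, edgeR adjusted p = 0.0027). In both peaks 1 basal TEB library lay far from another. Without basal duct replicate 1 or replicate 3 the edgeR adjusted p was 0.056 and 0.053 for Lef1 and 0.23 and 0.13 for Lrp5, and without basal TEB replicate 3 it was 0.1 for Lrp5. In Sfrp1 (chr8:23425178-23425649) the values were 0.228 and 0.770 CPM in basal duct, 4.60, 5.09 and 5.76 in basal TEB, 9.12, 6.72 and 4.30 in luminal duct, and 5.49, 2.73 and 2.63 in luminal TEB, with 3.38 (SE 0.42, edgeR adjusted p = 0.00017), which became adjusted p = 0.17 without basal duct replicate 1.

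Within the luminal lineage, structure made little measured difference at these genes. At promoters 0 of 40 were called in either direction by the edgeR exact test, beside 1.26% lower and 0.114% higher among all promoter-window peaks, and 0 by DESeq2, which gave an adjusted p for 6 of the 40. At an unadjusted p under 0.05 edgeR gave 6 lower and 0 higher. The Fzd10 promoter, at -0.67 (edgeR adjusted p = 0.062), was called lower in 3 other settings. The edgeR adjusted p was 0.04 with low peaks filtered, 0.017 with a replicate block and 0.036 without luminal duct replicate 3. Among the other peaks 3 were higher and 1 lower in luminal TEB, beside 0.335% and 0.357% of all other peaks. An Lrp6 intron peak (chr6:134537369-134538028) had 2.12, 1.12 and 2.79 CPM in luminal duct and 5.49, 6.28 and 6.92 in luminal TEB and rose by 1.63 (SE 0.32, edgeR adjusted p = 0.006). A peak centred at -1515 bp from the Fzd3 TSS (chr14:65263860-65264097) had 2.33, 3.17 and 3.44 CPM in luminal duct and 7.96, 7.10 and 6.92 in luminal TEB and rose by 1.29 (SE 0.16, edgeR adjusted p = 0.02). The Fzd3 peak was at 0.114 and 0.462 CPM in basal duct and 0.886 to 2.04 in basal TEB, so it was open mainly in luminal cells, while the Lrp6 peak was higher in the basal libraries, at 6.84 and 8.78 CPM in duct and 13.8, 20.7 and 14.6 in TEB.

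An Lrp5 intron peak (chr19:3668920-3670037) with 12.9, 8.58 and 9.46 CPM in luminal duct and 19.8, 14.5 and 18.8 in luminal TEB was at the threshold, with 0.78 (SE 0.22, edgeR adjusted p = 0.05 after rounding). A peak in the exon of Fzd10 (chr5:128602250-128602528) was the lower one, at 6.15, 4.29 and 9.67 CPM in luminal duct and 2.47, 1.37 and 3.95 in luminal TEB. It fell by 1.38 (SE 0.48, edgeR adjusted p = 0.037). Each of these 4 calls was lost without 1 or more single libraries. The edgeR adjusted p of Lrp6 was 0.12 without luminal duct replicate 2 and 0.062 without luminal TEB replicate 3. That of Fzd3 was 0.14 and 0.07 without luminal duct replicates 1 and 2, and 0.16 and 0.067 without luminal TEB replicates 1 and 3. For Lrp5 it was 0.3 and 0.11 without luminal duct replicates 2 and 3, and 0.29 and 0.21 without luminal TEB replicates 1 and 3. For Fzd10 it was 0.08 and 0.32 without luminal duct replicates 1 and 3, and 0.23 and 0.2 without luminal TEB replicates 1 and 2. DESeq2 called 0 of the 4. It gave an adjusted p for 7670 of the 153394 peaks in this comparison, so an absent call need not be a failed test.

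The interaction asked whether the change from duct to TEB differed between lineages. With low peaks filtered, 298 of the member peaks were tested by the edgeR quasi-likelihood test over all 11 libraries. The difference of basal and luminal changes was below 0 for 43 and above 0 for 8, beside 6.47% and 7.54% over all peaks. Of the 40 promoters 13 were below 0 and 0 above, beside 13.9% and 1.08% of all peaks in the promoter window. At an unadjusted p under 0.05 the counts were 21 and 0, and no DESeq2 fit of the interaction was run. The 13 became 4 under TSS-peak scaling and 3 with GC offsets. They became 4 without basal duct replicate 1, 6 to 8 without any 1 luminal duct library, and 8 and 7 without luminal TEB replicates 1 and 2. The called ones were Wnt2, Wnt2b, Wnt5b, Wnt7b, Wnt9a, Wnt10b, Fzd2, Fzd3, Fzd7, Lrp5, Lrp6, Sfrp2 and Axin2. The leading promoters were Wnt2b (-1.62, adjusted p = 0.00069 by edgeR), Wnt9a (-1.78, adjusted p = 0.00078 by edgeR) and Sfrp2 (-2.37, adjusted p = 0.0011 by edgeR), and these 3 kept their calls in all 15 other settings, while the call of Fzd7 was lost in 12 and those of Wnt2 and Wnt7b in 11. Fzd3 followed at -1.18 (edgeR adjusted p = 0.0072).

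Below 0 among other peaks, the Wnt9a intron peak gave -3.68 (edgeR adjusted p = 6.2e-05), the Wnt5b peak at chr6:119521484-119522315 gave -2.48 (edgeR adjusted p = 0.00028) and the Wnt5b peak at chr6:119535841-119536706 gave -1.78 (edgeR adjusted p = 0.00091). Above 0, the Sfrp1 intron peak gave 4.34 (edgeR adjusted p = 5e-05). An Lrp6 intron peak (chr6:134515390-134515731) had 0.798 and 0.616 CPM in basal duct, 4.09, 1.96 and 2.66 in basal TEB, 5.30, 5.78 and 5.16 in luminal duct, and 1.65, 4.37 and 2.31 in luminal TEB, with 2.96 (edgeR adjusted p = 0.0055). A Wnt7b intron peak (chr15:85574615-85575025) had 0.798 and 0.924 CPM in basal duct, 2.56, 4.30 and 4.43 in basal TEB, 6.36, 8.02 and 9.24 in luminal duct, and 6.59, 10.4 and 7.57 in luminal TEB, with 2.14 (edgeR adjusted p = 0.012). Basal duct was the lowest group at each of the 3 peaks above 0, under 1 CPM in both libraries. Picking peaks by a value above 0 in itself favours a low basal duct level.

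**Figure D5:**
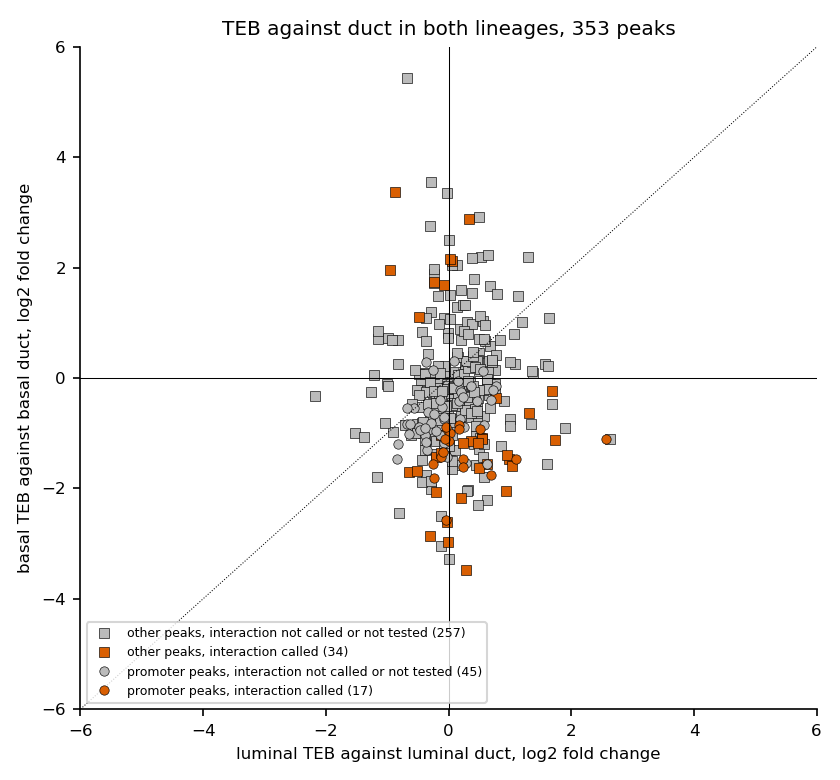
Log2 fold change of TEB against duct in basal cells (vertical) against that in luminal cells (horizontal) for 353 member peaks, circles for promoter and squares for other peaks, orange where the interaction was called (51 peaks). The points spread more along the vertical than the horizontal axis. Replicates also varied more in the basal pair, by an edgeR coefficient of variation of 0.268 beside 0.134 in the luminal pair. The 17 orange promoter circles lie under the dotted line of equal change, which is where an interaction below 0 puts a peak.

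Other genes of the pathway, 59 listed and 56 with a promoter peak, were counted the same way. In ducts 37 were higher in basal cells and 3 lower, that is 66.1% and 5.36% beside 43.8% and 12.0% of all promoter-window peaks. With GC offsets the counts were 20 and 10. In TEBs 8 were higher and 2 lower, or 14.3% and 3.57% beside 10.4% and 14.7%. From basal duct to basal TEB 0 rose and 21 fell, and these 37.5% stood beside 31.9% of all promoter-window peaks. The 21 became 2 under TSS-peak scaling and 0 without basal duct replicate 1. In the luminal lineage 0 rose and 1 fell. The R-spondin receptors Lgr6 and Lgr5, the latter a stem cell marker in several epithelia, had the smallest p in ducts. They were at 2.76 (SE 0.27, edgeR adjusted p = 1.5e-32) and 2.00 (SE 0.23, edgeR adjusted p = 3.8e-23). Their relative Lgr4 was lower in basal duct at -0.60 (SE 0.09, edgeR adjusted p = 8.7e-05), as was Celsr3 at -2.16 (SE 0.26, edgeR adjusted p = 0.001). The Celsr3 peak was near the floor, at 0.456 and 0.462 CPM in basal duct and 2.12, 2.61 and 1.29 in luminal duct. In TEBs Lgr6 at 2.34 (SE 0.17, edgeR adjusted p = 1.9e-11) and Sostdc1, a secreted antagonist, at 2.49 (SE 0.86, edgeR adjusted p = 1.7e-06) were higher in basal cells, and Wnt4 at -1.09 (SE 0.26, edgeR adjusted p = 0.013) and Ryk at -0.86 (SE 0.31, edgeR adjusted p = 0.023) lower. The calls of Wnt4 and Ryk were each lost without luminal TEB replicate 1 or 2, that of Wnt4 also without basal TEB replicate 2, and that of Ryk also without basal TEB replicate 3, without luminal TEB replicate 3 and by DESeq2, as was that of Sostdc1 by DESeq2.

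Lgr5 and Wnt4 had the smallest p among the pathway genes that were lower in basal TEB than in basal duct, at -1.75 (SE 0.40, edgeR adjusted p = 7.1e-06) and -1.92 (SE 0.30, edgeR adjusted p = 1.4e-05). Both calls were lost without basal duct replicate 1, at edgeR adjusted p = 0.053 and 0.061. Wnt4, the ligand of progesterone-driven side branching, had 22.2 and 18.5 CPM in basal duct, 6.65, 3.52 and 6.21 in basal TEB, 12.1, 11.6 and 9.89 in luminal duct, and 11.5, 12.6 and 10.2 in luminal TEB (chr4:137276788-137277762). It was thus more open in basal than luminal cells of ducts, by 0.81 (SE 0.15, edgeR adjusted p = 0.00015), and less open in those of TEBs, though the call in ducts was lost with GC offsets, at 0.23 (edgeR adjusted p = 0.24). Lgr4 was the 1 gene called in the luminal lineage, at -0.51 (SE 0.10, edgeR adjusted p = 0.035) for TEB against duct, a call lost in 7 of 14 other settings.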

How the data were processed

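ATAC-seq libraries were made from sorted cells of 4 populations. Per the study's methods, the reads were trimmed, aligned by the authors with Bowtie2 to the mm10 build and freed of duplicates. The submitters' processing notes give Bowtie2 2.3.4.3, and the study's methods name another release. The authors then called peaks with MACS2 on pooled replicates of each population, merged them and removed blacklisted regions. The deposited values are raw read counts per merged peak and library, obtained by the authors in SeqMonk. Because the peaks were called on pooled libraries, replicates share peak boundaries.

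Distances ran from the nearest peak edge to 41421 TSSs of protein-coding transcripts (GENCODE vM21 basic). Pairs of groups were compared with the exact test of edgeR 4.0.16 in R 4.3.3 (every peak with a count, TMM factors of the 2 groups, Benjamini-Hochberg FDR 0.05 over all peaks tested). The interaction used the edgeR quasi-likelihood test on 126832 peaks past filterByExpr. Printed CPM are TMM-scaled over 11 libraries. Log2 fold changes come from the pair fit, and their SE from the spread of log2 CPM (prior count 2). Each value printed is the first group minus the second. The scripts were tested on simulated data.

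In each comparison and direction the 4 promoter and 3 other member peaks of smallest p were given in full, and Wnt6 and Sfrp2 in further places. The members and lists were chosen with earlier results of these data known. A further basal duct sample, left out by the study because it had few cells, was not analysed here. The study calls the libraries biological replicates, and the labels do not say which of them shared mice, so p-values measure only the spread between these libraries. The 4 pairs share libraries: each group enters 2 of the pairs, so their values are not independent. Alternatives were DESeq2 1.42.0, the quasi-likelihood test, TMM from TSS peaks, loess and GC-bin offsets (50 bins), filterByExpr, a replicate block, each library left out, soft-masked peaks left out and a promoter window of 1000 bp.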

Additional observations from a re-analysis of the deposited data

Results flagged for a closer look

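For 10 peaks that the report names, the change from duct to TEB differed between basal and luminal cells by the interaction test of edgeR, which is why they are listed here. The log2 values of that difference were below 0 at the promoters of Wnt2b (-1.62), Wnt9a (-1.78), Sfrp2 (-2.37) and Fzd3 (-1.18) and at intron peaks of Wnt9a (-3.68) and Wnt5b (-2.48 and -1.78). They were above 0 at intron peaks of Sfrp1 (4.34), Lrp6 (2.96) and Wnt7b (2.14). Basal duct had 2 libraries in each of these values. Without basal duct replicate 1 the Fzd3 promoter gave -0.96 (edgeR adjusted p = 0.098) and the Wnt7b peak 1.95 (edgeR adjusted p = 0.11), and with GC-bin offsets the Fzd3 promoter gave -0.51 (edgeR adjusted p = 0.21).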

How the results depend on the processing

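Among the called values recomputed under each alternative, only that of the Lrp6 promoter in basal duct against luminal duct changed sign, to -0.06 with GC-bin offsets. Of values not called there, Wnt5a became -0.01, Fzd8 -0.03 and Tcf7l2 -0.03 after TSS-peak scaling, and GC-bin offsets gave -0.05, -0.03 and -0.08 in that order and -0.25 for Ctnnb1. A replicate block with these offsets gave -0.03 for Wnt5a and -0.11 for Ctnnb1, and the Fzd4 value of -0.08 ranged over -0.10 to 0.03 with 1 library left out, above 0 without basal duct replicate 3 or luminal duct replicate 2. Fzd4, Fzd5 and Fzd10 promoters were newly called lower in some of these settings, as the report gives. Other settings called promoters newly higher. With a replicate block these were Ctnnb1, Fzd8 and Tcf7l2 (edgeR adjusted p = 0.011, 0.017 and 0.028). Past filterByExpr they were Ctnnb1 and Fzd8, and after loess offsets Sfrp5. Fzd8 was also called without luminal duct replicate 1, and Ctnnb1 and Tcf7l2 without luminal duct replicate 2. Counts of member peaks called, over all 353, moved most in basal TEB against basal duct, where 7 were higher and 66 lower. They became 4 and 32 by DESeq2, 20 and 39 after loess offsets, 28 and 14 when the scaling used TSS peaks alone, 14 and 24 after GC-bin offsets, 17 and 35 past filterByExpr, and 12 and 22 with a replicate block and GC-bin offsets together. Over all peaks of the series the same comparison gave 12605 higher and 14924 lower in the main fit. These were 21927 and 2393 after TSS-peak scaling and 16052 and 6648 after GC-bin offsets. The lower count of basal TEB against luminal TEB, 45, was 27 with DESeq2. For luminal TEB against luminal duct, 3 higher and 1 lower became 0 and 0 with DESeq2. The lower count there was 0 after either TSS-peak scaling or GC-bin offsets and 2 past filterByExpr. The interaction, 8 above 0 and 43 below, gave 15 and 16 after TSS-peak scaling, and 18 below 0 after GC-bin offsets. The cause of these changes was not tested. By DESeq2 an adjusted p was missing for many low peaks, and these stayed out of its counts.

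With 1 library left out at a time, higher counts ranged over 165 to 191 and lower counts over 51 to 56 in basal duct against luminal duct, 55 to 77 and 28 to 38 in basal TEB against luminal TEB, 0 to 9 and 4 to 71 in basal TEB against basal duct, and 0 to 4 and 0 to 2 in luminal TEB against luminal duct. The interaction ranged over 2 to 14 above 0 and 16 to 50 below. A group left with 1 library was assumed to vary like the other group. With 1 basal duct library left, calls in basal TEB against basal duct fell strongly over all peaks of the series too. In basal TEB against basal duct, 0 promoters stayed called without basal duct replicate 1 and 6 without basal duct replicate 3, of 22. Whether same-numbered libraries were paired could not be told. Their deviations correlated at -0.0346 to 0.0954, beside -0.0711 to 0.057 for libraries of different numbers. Between luminal duct and luminal TEB the same-numbered values were 0.0446, 0.0954 and 0.0684. No pairing was used in the main fits. With the replicate number as a block the lower count in luminal TEB against luminal duct was 3, and it was 62 in basal TEB against basal duct. Depth limited basal TEB most.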

Other observations

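Dkk2, a secreted antagonist that binds Lrp co-receptors, had no promoter peak but 4 other peaks, which were singled out here after their values were seen. Its intron peak 36888 bp inside the gene had 0 and 0.616 CPM in basal duct, 2.04, 1.96 and 2.66 in basal TEB, 8.48, 10.6 and 4.94 in luminal duct, and 8.51, 13.4 and 8.56 in luminal TEB. All luminal libraries were above all basal ones, with log2 fold changes for basal against luminal of -4.89 (edgeR adjusted p = 5.2e-20) in ducts and -2.17 (edgeR adjusted p = 1e-05) in TEBs, and basal TEB was above basal duct by 2.89 (SE 0.62, edgeR adjusted p = 0.027). Dkk1 had 2 other peaks and 0 calls in the 4 comparisons of pairs.

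Picking peaks by an interaction above 0 in itself favours a basal duct level below those of basal TEB and luminal duct. In these 8 peaks the mean level in basal duct was below both, so this order is no separate result. The gap to luminal duct was small in the Lrp5 peak, as the following group means show. They were 0.308, 2.22 and 8.02 CPM in basal duct, basal TEB and luminal duct for the Dkk2 peak, 0.613, 2.08 and 8.03 for an intron peak of Tcf7l1, 0.479, 2.14 and 11.1 for an exon peak of Lrp6, and 2.30, 4.93 and 7.51 for a peak outside Fzd10. The Lrp5 intron peak had 3.42, 11.1 and 3.46 CPM, so there basal TEB was the high group.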
